A study of Homo sapiens with 21 samples.

Results

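The genes described here encode integrin subunits, the receptors with which cells hold on to their matrix, and laminin chains, the building blocks of the basement membrane ligands of some of those receptors. They are rows of an RNA-seq expression table of H1975 cells whose symbols name an integrin alpha subunit, an integrin beta subunit or a laminin alpha, beta or gamma chain, 35 of 34021 genes: 24 integrin genes (16 alpha and 8 beta) and 11 laminin genes (5 alpha, 4 beta and 2 gamma chains). ITGA4 and ITGA8 were not analysed here. H1975 is an established line from a human lung adenocarcinoma with mutant EGFR, the epidermal growth factor receptor gene. The series asks how such cells outlast EGFR inhibitors, and 9 RNA-seq libraries, 3 per group, were used.

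All groups were cultured for 8 days. DMSO_EV (DMSO+EV in the submitters' titles, genotype WT) received the vehicle DMSO and EV, which the submitters did not spell out. Osi_Lin_EV (OL+EV, genotype WT) received osimertinib at 500 nM, which binds mutant EGFR covalently, with linsitinib at 500 nM, which blocks the kinases IGF1R (the receptor of insulin-like growth factors) and the insulin receptor. EV is named in its title and not in its treatment label. Osi_cIGF1R (OC) received osimertinib at 500 nM together with overexpressed cIGF1R, a circular RNA of the IGF1R gene, and its labels name no EV. Cells given osimertinib and EV without more were not analysed here, so the effects of the drug and of the circular RNA cannot be told apart in Osi_cIGF1R, nor those of both drugs in Osi_Lin_EV. The labels do not say whether the overexpressing cells were a pool or a clone, nor whether replicate libraries stem from separate cultures, so p-values measure only a spread among libraries that may be technical.

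An integrin is a heterodimer of an alpha and a beta subunit that spans the plasma membrane, binds matrix outside the cell and couples to actin or, through the beta4 subunit, to keratin filaments. The alpha subunit largely sets the ligand: alpha2 binds collagen, alpha3 and alpha6 bind laminin, and alpha5 and alphaV bind proteins with an RGD motif such as fibronectin. A laminin is a cross-shaped trimer of an alpha, a beta and a gamma chain, and laminin-332, which holds the chains LAMA3 and LAMB3, anchors epithelia by way of alpha3 and alpha6 integrins.

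Levels are given as FPKM, fragments counted at a gene relative to its length and to the fragments of the library, a unit that the deposited table does not name and that its values point to. Read depth is unknown. The IGF1R row, which holds the linear mRNA and any reads of the circular RNA, stood at 3.76, 4.41 and 4.24 FPKM in DMSO_EV, 4.41, 3.56 and 3.73 in Osi_Lin_EV and 81.4, 82.3 and 101 in Osi_cIGF1R, so the libraries labelled with cIGF1R overexpression were the ones with more reads at that gene. Transcripts of mitochondrial DNA took 30.4%, 20.7% and 20.3% of the FPKM in DMSO_EV, 20.4%, 20.9% and 25.6% in Osi_Lin_EV and 6.75%, 7.28% and 6.08% in Osi_cIGF1R. FPKM is relative to the fragments of a library, so a different share of mitochondrial RNA can shift the values of other genes. The FPKM of all genes summed to 474156, 438983 and 429553 in DMSO_EV and 338034, 342781 and 381311 in Osi_cIGF1R. The mitochondrial shares alone therefore do not give the direction of such a shift. The results were recomputed with equal totals over the remaining genes. All 8 epithelial markers looked at were above 1 FPKM in every group, led by KRT8 at 4208, 5224 and 5654 FPKM. Of 6 alveolar markers AGER was the highest, at 5.74, 5.88 and 3.40 FPKM, and SFTPC was at 0 in DMSO_EV and SFTPB in Osi_cIGF1R. Summed over the 7 leukocyte markers in the table, levels were 23.6 to 29.8 FPKM in DMSO_EV, 23.8 to 28.4 in Osi_Lin_EV and 422 to 450.3 in Osi_cIGF1R. CD68, which is also a lysosomal protein of many cells, made up nearly all of that, at a mean of 427.8 in Osi_cIGF1R, while PTPRC, the defining leukocyte gene, did not exceed 0.0352 in any library. In the same order the summed ranges were 3.38 to 3.75, 3.35 to 3.71 and 5.60 to 6.10 FPKM for 5 fibroblast markers (DCN at 0 in DMSO_EV, COL1A2 and COL3A1 at 0 in Osi_cIGF1R) and 3.55 to 4.13, 0.171 to 0.240 and 0.783 to 0.972 FPKM for 4 endothelial markers, among which CDH5 averaged 3.37, 0.114 and 0.482 FPKM.

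Of the 35 genes, 20 passed the filter of at least 1 FPKM in at least 3 libraries and were tested, 13 of them integrin and 7 laminin genes. ITGAM met that filter through Osi_Lin_EV alone, so that its test was set by its own change, and it is described without one and left out of the counts, which cover 19 genes. H1975 cells held transcripts of most subunits of epithelial integrins (ITGA2, ITGA3, ITGA5, ITGA6, ITGAV, ITGB1, ITGB4, ITGB5, ITGB6 and ITGB8), of the beta2 subunit ITGB2 that is best known from leukocytes, of LAMA3 and LAMB3, and of the chains of laminin-511 and laminin-521 (LAMA5 with LAMB1 or LAMB2 and LAMC1). Group means reached 5 FPKM in at least 1 group for 16 genes and 1 to 5 FPKM for 4 others, ITGAE, ITGAM, ITGB8 and LAMA4. The other 15 stayed under 1 FPKM in every group mean and were not tested. They were the collagen-binding subunits ITGA1, ITGA10 and ITGA11, the muscle laminin receptor ITGA7, ITGA9, the leukocyte subunits ITGAD, ITGAL, ITGAX and ITGB7, the platelet pair ITGA2B and ITGB3, and the laminin chains LAMA1, LAMA2, LAMB4 and LAMC3. The highest single value among them was 0.746 FPKM, of ITGA2B in DMSO_EV replicate 2. LAMA1 was listed at 0 in 8 of 9 libraries and ITGA11 in the 3 libraries of DMSO_EV. The plot of levels by library shows the 16 more abundant genes.

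**Figure D1:**
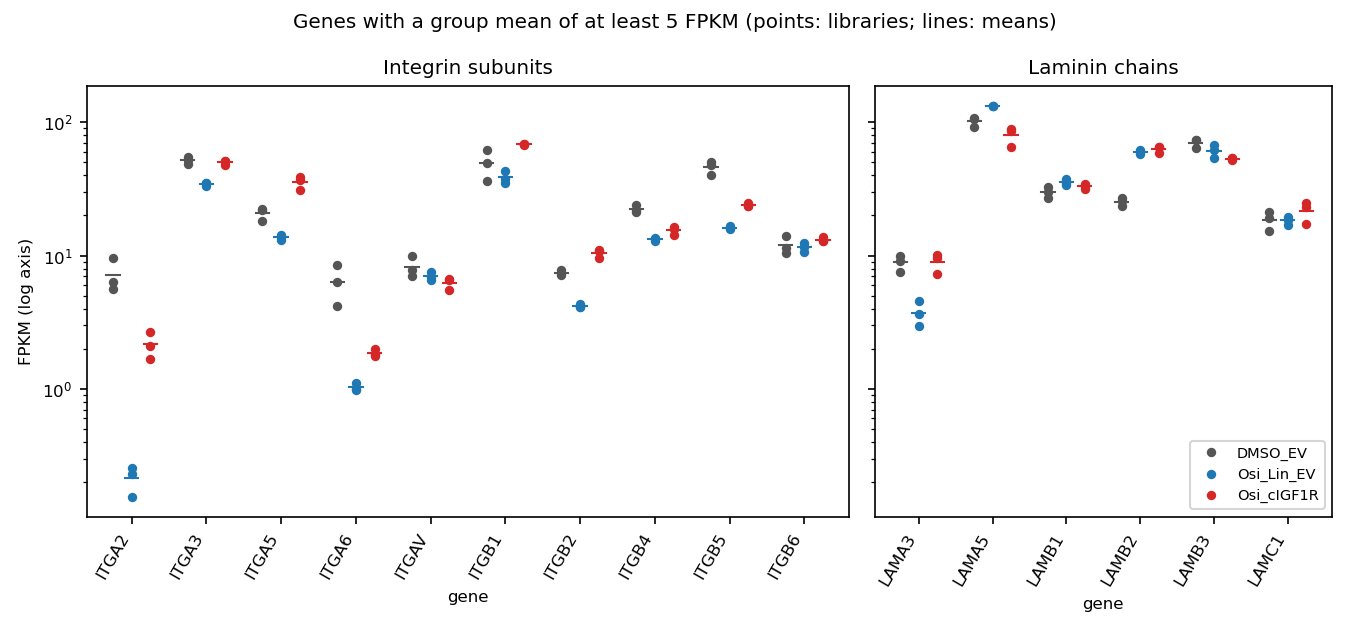
FPKM on a log axis of the 16 integrin and laminin genes with a group mean of at least 5 FPKM, 1 point per library and a line at each group mean. ITGA2 and ITGA6 in Osi_Lin_EV lie farthest below DMSO_EV, at means of 0.214 and 1.03 FPKM, and LAMB2 lies above DMSO_EV in both treated groups.

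Under osimertinib and linsitinib, 9 of the 19 genes fell and 4 rose against DMSO_EV (limma, Benjamini-Hochberg adjusted p under 0.05), and 6 did not pass. Those that fell were ITGA2, ITGA3, ITGA5, ITGA6, ITGB2, ITGB4, ITGB5, LAMA3 and LAMA4, and those that rose were ITGB8, LAMA5, LAMB1 and LAMB2. Without Osi_Lin_EV replicate 2 the rises were 2. Of all 13775 genes tested, 52.6% were called in this comparison, 29% higher and 23.5% lower, so a share of 68.4% of the 19 is to be read against a broad change. Without the 636 genes that likewise met the filter through 1 group alone, the share over all genes was 51.9% here, and 68.1% and 60.2% in the comparisons that follow. The median log2 fold change was -0.32 over the 19 genes and 0.05 over all genes tested. Called with an absolute log2 fold change of at least 1 were 4 falls (ITGA2, ITGA6, ITGB5 and LAMA3) and the rise of LAMB2, against 9.19% of all genes. A lower level in such bulk samples does not tell fewer cells with the transcript from less transcript per cell.

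With osimertinib and cIGF1R, 5 genes rose against DMSO_EV (ITGA5, ITGB1, ITGB2, ITGB8 and LAMB2) and 9 fell (ITGA2, ITGA6, ITGAE, ITGAV, ITGB4, ITGB5, LAMA4, LAMA5 and LAMB3). With equal totals without mitochondrial genes the falls were 7. Here 69% of all genes were called, 33.1% higher and 35.8% lower, so the share of 73.7% among the 19 was near the background, and the medians were -0.06 over the 19 and -0.03 over all genes. Set directly against Osi_Lin_EV, Osi_cIGF1R was higher for 8 genes (ITGA2, ITGA3, ITGA5, ITGA6, ITGB1, ITGB2, ITGB5 and LAMA3) and lower for 2 (ITGAE and LAMA5), or for 1 without Osi_Lin_EV replicate 2 or Osi_cIGF1R replicate 1 or 2. In that comparison 52.6% of the 19 genes were called against 60.7% of all genes, of which 25.9% were higher and 34.8% lower, and the medians were 0.21 and -0.09. ITGB6, a subunit of a receptor for latent TGF-beta, and LAMC1, the common gamma chain, were not called in any of the 3 comparisons. The comparisons share groups, so their values are given side by side and no overlap between them is offered as a result.

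**Figure D2:**
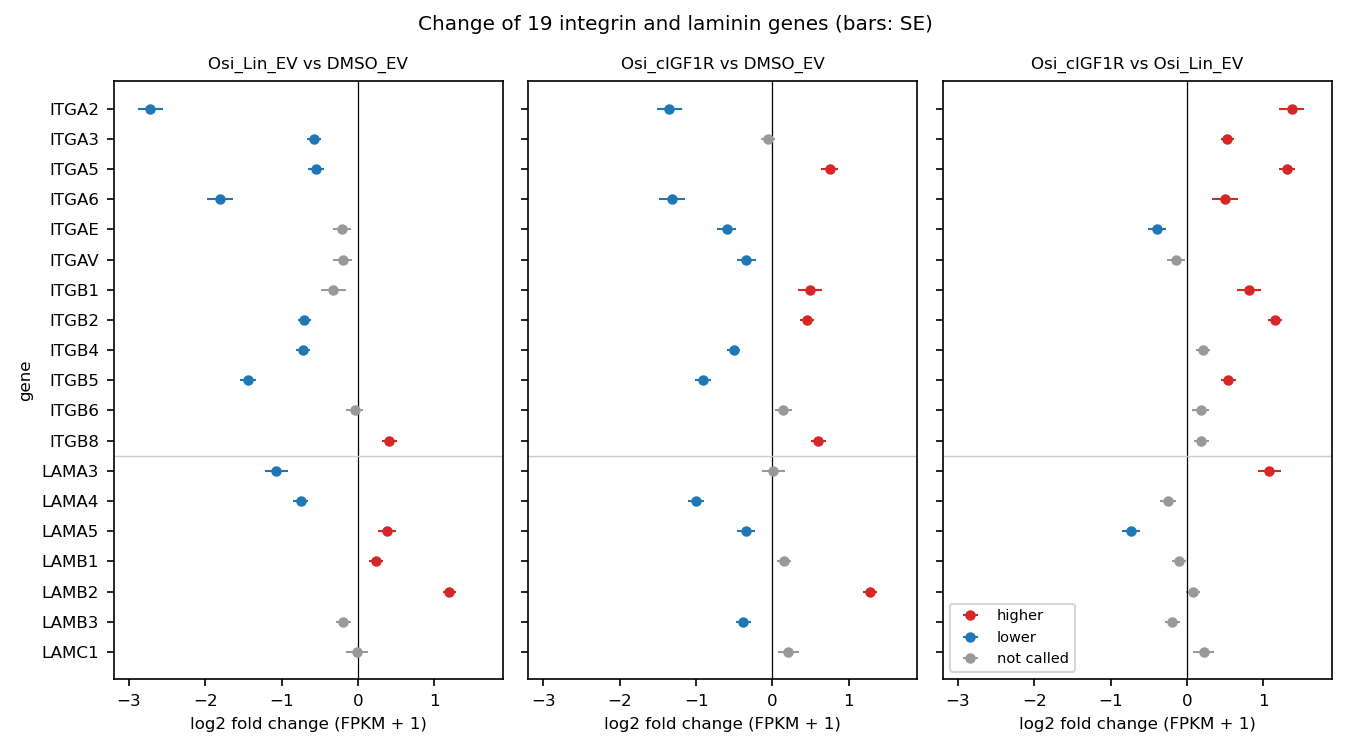
Log2 fold change on the log2(FPKM + 1) scale of 19 genes in each comparison, with bars of 1 SE and colour by call. In Osi_Lin_EV vs DMSO_EV 9 genes were lower and 4 higher, and in Osi_cIGF1R vs Osi_Lin_EV 8 were higher and 2 lower.

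The promoters of LAMA3, LAMB3 and ITGA5 are printed because the AP-1 motif TGANTCA was found in them. They are the only such members of the 24 genes with a RefSeq promoter window (GRCh38.p14). AP-1 factors of the FOS and JUN families bind such letters and are switched on by signals that pass through EGFR. On either strand, the motif was in 7.71% of all 35116 windows of the same length, which run from 250 bases before a gene's start to 50 after it. It was in 3 of 31 windows of the integrin and laminin genes, which is near the share over all windows. The TEAD motif CATTCC, also searched on either strand, was in 14% of all windows and, among these genes, in ITGA5, ITGB1, ITGA10 and LAMA2. The interferon-stimulated response element was in 3.57% of all windows and in 1 of 3 windows of ITGB5. Each line gives 140 bases before to 10 bases after the start, 5′ to 3′ along the gene, with motif matches in capitals. LAMA3 lies on the plus strand, its window at an inner start of the gene at chr18:23872880-23873029, with AP-1 matches whose first bases are 125 and 69 before the start. LAMB3 is on the minus strand, its printed window 1 of 3 and at an inner start of the gene at chr1:209651365-209651514, with a match 67 before the start. ITGA5 is on the minus strand at chr12:54419257-54419406, with an AP-1 match 6 before the start and a TEAD match 82 before it.
LAMA3: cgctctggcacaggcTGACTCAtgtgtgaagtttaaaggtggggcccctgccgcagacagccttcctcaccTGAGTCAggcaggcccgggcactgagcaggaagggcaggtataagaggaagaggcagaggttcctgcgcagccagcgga
LAMB3: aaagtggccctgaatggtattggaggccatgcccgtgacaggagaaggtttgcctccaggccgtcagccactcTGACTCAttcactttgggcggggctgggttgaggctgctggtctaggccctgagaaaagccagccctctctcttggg
ITGA5: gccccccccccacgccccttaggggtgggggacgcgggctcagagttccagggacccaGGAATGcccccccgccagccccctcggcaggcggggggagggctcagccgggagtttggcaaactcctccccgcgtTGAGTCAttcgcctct
In Osi_Lin_EV LAMA3 and ITGA5 fell while LAMB3 did not pass, and in Osi_cIGF1R ITGA5 rose, LAMB3 fell and LAMA3 did not pass. The match is a description of letters, and binding was not measured. No window was in the table for 11 of the 35 genes, ITGA3, ITGB2 and ITGB4 among them.

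ITGA2, the collagen-binding alpha2 subunit (chromosome 5 from 52989352 to 53094779, RefSeq annotation of GRCh38), had the largest absolute log2 fold change of the 19 genes in Osi_Lin_EV against DMSO_EV, a rank that ITGB5 took with a pseudocount of 5 (-1.26). It stood at 5.58, 6.33 and 9.54 FPKM in DMSO_EV, 0.257, 0.231 and 0.154 in Osi_Lin_EV and 2.67, 2.11 and 1.69 in Osi_cIGF1R. The groups did not overlap: every Osi_Lin_EV library was at or below 0.257 FPKM, and the Osi_cIGF1R libraries lay between those of the other groups. Against DMSO_EV the gene fell in Osi_Lin_EV (log2 fold change -2.72, SE 0.16, adjusted p = 1.66e-08), where the mean was 33.4 times lower, and in Osi_cIGF1R (log2 fold change -1.35, SE 0.16, adjusted p = 6.03e-06). Osi_cIGF1R stood above Osi_Lin_EV (log2 fold change 1.37, SE 0.16, adjusted p = 1.04e-05). The size on this scale depends on the 1 FPKM added before the logarithm: with 0.1 and with 5 in its place the change in Osi_Lin_EV was -4.51 and -1.21, and that between the treated groups 2.84 and 0.45, with the call held. ITGA2 was the only collagen-binding subunit of 4 that could be tested.

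Of the laminin-binding alpha subunits, ITGA3 (chromosome 17 from 50056110 to 50090481), the partner of ITGB1 in the main laminin-332 receptor of epithelia, stood at 49, 55.1 and 51.9 FPKM in DMSO_EV, 34.9, 34.8 and 33.3 in Osi_Lin_EV and 51.1, 50.9 and 47.9 in Osi_cIGF1R. Every Osi_Lin_EV library was below every library of the other groups, which overlapped. ITGA3 fell in Osi_Lin_EV (log2 fold change -0.58, SE 0.09, adjusted p = 7.58e-05) and was higher in Osi_cIGF1R than in Osi_Lin_EV (log2 fold change 0.53, SE 0.09, adjusted p = 0.000147). Between Osi_cIGF1R and DMSO_EV it did not pass (log2 fold change -0.06, adjusted p = 0.576).

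ITGA6 (chromosome 2 from 172427336 to 172506459), which pairs with ITGB4 in hemidesmosomes and with ITGB1 elsewhere, held 4.15, 6.35 and 8.55 FPKM in DMSO_EV, 1, 1.1 and 0.978 in Osi_Lin_EV and 1.76, 1.98 and 1.83 in Osi_cIGF1R. Both treated groups lay wholly below DMSO_EV, whose libraries differed more among themselves than those of the other groups. The gene fell in Osi_Lin_EV (log2 fold change -1.81, SE 0.17, adjusted p = 1.49e-06) and in Osi_cIGF1R (log2 fold change -1.32, SE 0.17, adjusted p = 1.29e-05). The difference between the treated groups was smaller (log2 fold change 0.50, SE 0.17, adjusted p = 0.0217), and its call was lost under a pseudocount of 5 (adjusted p = 0.158), with no filter (0.0971) and without Osi_Lin_EV replicate 1 or 3 (0.0526 and 0.0573) or Osi_cIGF1R replicate 2 or 3 (0.0638 and 0.0535), in a range of 0.00101 to 0.158 over the alternatives.

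Of the RGD-binding alpha subunits, ITGA5 (chromosome 12 from 54395261 to 54419266), the fibronectin receptor subunit, was found at 18.1, 22 and 22.2 FPKM in DMSO_EV, 14.4, 13.8 and 13.2 in Osi_Lin_EV and 37.1, 38.8 and 31.3 in Osi_cIGF1R. The 3 groups did not overlap, with Osi_Lin_EV lowest and Osi_cIGF1R highest. ITGA5 fell in Osi_Lin_EV (log2 fold change -0.55, SE 0.11, adjusted p = 0.000709), rose in Osi_cIGF1R (log2 fold change 0.75, SE 0.11, adjusted p = 3.02e-05) and was 2.59 times higher in Osi_cIGF1R than in Osi_Lin_EV (log2 fold change 1.31, SE 0.11, adjusted p = 3.52e-07). ITGAV (chromosome 2 from 186590056 to 186680901), which pairs with several beta subunits, stood at 7.03, 7.74 and 9.89 FPKM in DMSO_EV, 7.49, 6.59 and 6.86 in Osi_Lin_EV and 6.65, 6.55 and 5.57 in Osi_cIGF1R. The values of Osi_Lin_EV fell within the range of the others, and those of Osi_cIGF1R were below every DMSO_EV library. ITGAV was lower in Osi_cIGF1R than in DMSO_EV (log2 fold change -0.34, SE 0.12, adjusted p = 0.021), a call lost without DMSO_EV replicate 3, where the change was -0.21 (adjusted p = 0.0893), without Osi_cIGF1R replicate 3 (0.0758), with no filter (0.0697) and with equal totals without mitochondrial genes (0.0612; range over the alternatives 0.00684 to 0.0893).

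Alpha subunits typical of leukocytes were low. ITGAM, which pairs with ITGB2 in the complement receptor of myeloid cells, was between 1.05 and 1.31 FPKM in Osi_Lin_EV, between 0.252 and 0.412 in DMSO_EV and between 0.235 and 0.315 in Osi_cIGF1R. Only in Osi_Lin_EV did its libraries pass 1 FPKM, and those of the other groups lay below them. ITGAE, the alphaE subunit of the E-cadherin receptor of lymphocytes in epithelia, lay between 2.05 and 2.25 FPKM in DMSO_EV, between 1.42 and 1.91 in Osi_Lin_EV and between 0.806 and 1.47 in Osi_cIGF1R, and was lower in Osi_cIGF1R than in DMSO_EV (log2 fold change -0.60, SE 0.12, adjusted p = 0.000683). Within its span lies HASPIN, a mitotic kinase gene, at means of 2.52, 0.212 and 0.481 FPKM, and the span overlaps P2RX5 at 9.60, 3.80 and 7.40. The use of strand in counting is not given in the sources used here, so reads of these neighbours cannot be told apart from those of ITGAE. The partner of ITGAE, ITGB7, was not tested, with a highest value of 0.287 FPKM. The lower level of ITGAE in Osi_cIGF1R than in Osi_Lin_EV (log2 fold change -0.39, SE 0.12, adjusted p = 0.0147) lost its call under quantile normalization (adjusted p = 0.0601), with no filter (0.0529) and without Osi_Lin_EV replicate 2 (0.0616) or Osi_cIGF1R replicate 1 or 2 (0.0522 and 0.0765; range over the alternatives 0.00193 to 0.0765).

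Among beta subunits, ITGB1 (chromosome 10 from 32900318 to 32958230), the shared partner of most alpha subunits, stood at 36.2, 49.9 and 62.3 FPKM in DMSO_EV, 43.3, 37.8 and 34.9 in Osi_Lin_EV and 67.9, 68.4 and 68.8 in Osi_cIGF1R. The Osi_cIGF1R libraries lay within 1 FPKM of each other and above all the rest, whereas DMSO_EV was spread and overlapped Osi_Lin_EV. ITGB1 was higher in Osi_cIGF1R than in Osi_Lin_EV (log2 fold change 0.81, SE 0.16, adjusted p = 0.00059) and than in DMSO_EV (log2 fold change 0.49, SE 0.16, adjusted p = 0.0124). The latter change was 0.29 without DMSO_EV replicate 1, the lowest library, and lost its call with no filter (adjusted p = 0.0667; range over the alternatives 0.00115 to 0.0667). Osi_Lin_EV did not differ from DMSO_EV by the test (log2 fold change -0.32, SE 0.16, adjusted p = 0.103), but did so without DMSO_EV replicate 1 (log2 fold change -0.52, adjusted p = 0.00286) and under median-of-ratios rescaling (-0.38, adjusted p = 0.0391; range over the alternatives 0.00286 to 0.428). ITGB1P1, a processed copy of ITGB1 on chromosome 19, was listed at 30.9, 22.5 and 28.3 FPKM in DMSO_EV, 18.1, 19.2 and 22.6 in Osi_Lin_EV and 15.9, 15.9 and 20.4 in Osi_cIGF1R, so the authors' counting may have split reads between them and the level of ITGB1 is uncertain. ITGB1P1 fell in both treated groups against DMSO_EV (log2 fold change -0.43, SE 0.13, adjusted p = 0.0162 in Osi_Lin_EV and -0.62, SE 0.13, adjusted p = 0.00103 in Osi_cIGF1R), so its direction in Osi_cIGF1R was opposite to that of ITGB1.

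ITGB5 (chromosome 3 from 124761948 to 124901418), the beta subunit of the vitronectin receptor alphaVbeta5, had the largest change among beta subunits in both comparisons with DMSO_EV. It stood at 39.9, 50.4 and 47.8 FPKM in DMSO_EV, 16.8, 16.1 and 15.8 in Osi_Lin_EV and 23.7, 24.8 and 23.6 in Osi_cIGF1R. Without overlap, DMSO_EV was highest, Osi_cIGF1R intermediate and Osi_Lin_EV lowest. The gene fell in Osi_Lin_EV (log2 fold change -1.44, SE 0.10, adjusted p = 5.22e-08) and in Osi_cIGF1R (log2 fold change -0.91, SE 0.10, adjusted p = 2.02e-06), and Osi_cIGF1R stood above Osi_Lin_EV (log2 fold change 0.54, SE 0.10, adjusted p = 0.000338). ITGB6, the epithelial partner of ITGAV, was found at 10.4, 11.4 and 13.9 FPKM in DMSO_EV, 12.4, 11.6 and 10.7 in Osi_Lin_EV and 12.9, 13.8 and 12.9 in Osi_cIGF1R, with adjusted p = 0.794, 0.246 and 0.16 in the order Osi_Lin_EV against DMSO_EV, Osi_cIGF1R against DMSO_EV and Osi_cIGF1R against Osi_Lin_EV. The second passed without DMSO_EV replicate 3 (log2 fold change 0.25, adjusted p = 0.0325). The last, in which the groups did not overlap, passed under median-of-ratios rescaling (adjusted p = 0.0398). ITGB8, another partner of ITGAV, ran from 1.30 to 1.65 FPKM in DMSO_EV, 2.17 to 2.44 in Osi_Lin_EV and 2.43 to 3.02 in Osi_cIGF1R. It rose in Osi_Lin_EV (log2 fold change 0.41, SE 0.10, adjusted p = 0.00402) and in Osi_cIGF1R (log2 fold change 0.60, SE 0.10, adjusted p = 0.000136). The antisense gene ITGB8-AS1, at means of 1.02, 1.56 and 1.54 FPKM, overlaps it, and reads of the pair cannot be told apart without strand.

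ITGB4 (chromosome 17 from 75721459 to 75757818), the hemidesmosomal subunit, stood at 21.2, 24.1 and 22 FPKM in DMSO_EV, 13.4, 13.4 and 12.9 in Osi_Lin_EV and 16.3, 15.9 and 14.3 in Osi_cIGF1R. Every treated library was below every DMSO_EV library. ITGB4 fell in Osi_Lin_EV (log2 fold change -0.72, SE 0.09, adjusted p = 1.67e-05) and in Osi_cIGF1R (log2 fold change -0.51, SE 0.09, adjusted p = 0.000176), and the difference between the treated groups did not pass (log2 fold change 0.21, adjusted p = 0.0546), though it passed under 5 of the alternatives, with adjusted p down to 0.0161 under median-of-ratios rescaling. ITGB2 (chromosome 21 from 44885953 to 44928815), the beta2 subunit of leukocyte integrins, was at 7.1, 7.46 and 7.75 FPKM in DMSO_EV, 4.34, 4.12 and 4.12 in Osi_Lin_EV and 11.1, 10.8 and 9.65 in Osi_cIGF1R. The groups did not overlap, and the order was Osi_Lin_EV, DMSO_EV, Osi_cIGF1R from low to high. It fell in Osi_Lin_EV (log2 fold change -0.70, SE 0.09, adjusted p = 2.2e-05), rose in Osi_cIGF1R (log2 fold change 0.45, SE 0.09, adjusted p = 0.00051) and differed between both treated groups (log2 fold change 1.15, SE 0.09, adjusted p = 2.01e-07). Its alpha partners were low, with ITGAL, ITGAX and ITGAD at or below 0.14 FPKM in every library. The highest partner was ITGAM, at 1.05 to 1.31 FPKM in Osi_Lin_EV, where ITGB2 fell, and at most 0.412 elsewhere. PTPRC was at or near 0 in all 9 libraries. Genes that overlap these, which unstranded counting would not keep apart, were GALK1 for ITGB4 (means of 5.66, 7.12 and 6.71 FPKM) and the antisense ITGB2-AS1 for ITGB2 (1.63, 0.683 and 1.42).

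The alpha chains of laminin were almost wholly LAMA5 (chromosome 20 from 62309065 to 62367312), the chain of laminin-511 and laminin-521. LAMA5 stood at 107, 107 and 92 FPKM in DMSO_EV, 132, 134 and 132 in Osi_Lin_EV and 89.4, 86.6 and 64.7 in Osi_cIGF1R. The groups did not overlap, and Osi_Lin_EV was highest and Osi_cIGF1R lowest, with Osi_cIGF1R replicate 3 at the bottom. Osi_cIGF1R was lower than Osi_Lin_EV (log2 fold change -0.73, SE 0.12, adjusted p = 0.00019). The changes against DMSO_EV were smaller, a rise in Osi_Lin_EV (log2 fold change 0.38, SE 0.12, adjusted p = 0.0181) and a fall in Osi_cIGF1R (log2 fold change -0.35, SE 0.12, adjusted p = 0.0206), and both depended on the processing. The rise lost its call without DMSO_EV replicate 3 (adjusted p = 0.0783), without Osi_Lin_EV replicate 2 (0.0518) and with no filter (0.0652; range over the alternatives 0.00103 to 0.0783). The fall was -0.21 without Osi_cIGF1R replicate 3 (adjusted p = 0.0411) and lost its call without DMSO_EV replicate 1 or 2 (0.0572 and 0.0739), with no filter (0.0679) and with equal totals without mitochondrial genes (0.0765; range 0.0112 to 0.0765).

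LAMA3 (chromosome 18 from 23689453 to 23955066), the alpha chain of laminin-332, was found at 7.57, 9.09 and 10 FPKM in DMSO_EV, 4.54, 3.66 and 2.95 in Osi_Lin_EV and 10.03, 9.63 and 7.26 in Osi_cIGF1R. The Osi_Lin_EV libraries lay below all the others, and Osi_cIGF1R overlapped DMSO_EV. LAMA3 fell in Osi_Lin_EV (log2 fold change -1.07, SE 0.15, adjusted p = 3.98e-05) and was higher in Osi_cIGF1R than in Osi_Lin_EV (log2 fold change 1.08, SE 0.15, adjusted p = 3.19e-05), while Osi_cIGF1R and DMSO_EV did not differ by the test (log2 fold change 0.01, SE 0.15, adjusted p = 0.963). LAMA4, a chain best known from vessel walls, muscle and fat, ran from 2.13 to 2.69 FPKM in DMSO_EV, 0.940 to 1.17 in Osi_Lin_EV and 0.627 to 0.859 in Osi_cIGF1R. It fell in Osi_Lin_EV (log2 fold change -0.75, SE 0.10, adjusted p = 4.95e-05) and in Osi_cIGF1R, where the mean was 0.744 FPKM against 2.50 (adjusted p = 1.66e-06). Between the treated groups LAMA4 did not pass (log2 fold change -0.25, SE 0.10, adjusted p = 0.054). That difference passed under some alternatives, with adjusted p down to 0.0357 with a pseudocount of 0.1. Of the 4 endothelial markers, CDH5 was also highest in DMSO_EV, as given above. The median of the 4 marker means was 0.185 FPKM in DMSO_EV, 0.0314 in Osi_Lin_EV and 0.193 in Osi_cIGF1R, so the list did not follow CDH5. Any link of these markers to the level of LAMA4 was not tested.

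LAMB2 (chromosome 3 from 49121114 to 49133050), the beta chain that stands in for LAMB1 in laminin-521, had the largest rise of the 19 genes in both comparisons with DMSO_EV on this scale. It stood at 25.7, 26.8 and 23.7 FPKM in DMSO_EV, 61.7, 60.2 and 57.6 in Osi_Lin_EV and 65.3, 65.5 and 58.9 in Osi_cIGF1R. The lowest of the 6 treated libraries held 57.6 FPKM and the highest of the 3 vehicle libraries 26.8. LAMB2 rose in Osi_Lin_EV (log2 fold change 1.20, SE 0.09, adjusted p = 1.43e-07) and in Osi_cIGF1R (log2 fold change 1.28, SE 0.09, adjusted p = 2.88e-08), and the treated groups overlapped (adjusted p = 0.465). LAMB1 (chromosome 7 from 107923799 to 108003161) stood at 27.2, 29.8 and 32.6 FPKM in DMSO_EV, 37.5, 35 and 33.9 in Osi_Lin_EV and 34.4, 33.3 and 31.6 in Osi_cIGF1R. Its small rise in Osi_Lin_EV (log2 fold change 0.24, SE 0.09, adjusted p = 0.0408) lost its call under 10 of 19 alternatives: without DMSO_EV replicate 1 or 2 (adjusted p = 0.123 and 0.0898), without Osi_Lin_EV replicate 1, 2 or 3 (0.153, 0.0908 and 0.0576), without Osi_cIGF1R replicate 1 or 2 (0.0531 and 0.0577), with no filter (0.0721), under median-of-ratios rescaling (0.0724) and with a replicate block (0.0831), in a range of 0.0181 to 0.153.

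LAMB3 (chromosome 1 from 209614870 to 209652425), the beta chain of laminin-332, was the most abundant laminin beta chain in DMSO_EV, at 63.6, 73.1 and 73.2 FPKM in DMSO_EV, 67.5, 62.1 and 54.4 in Osi_Lin_EV and 53.7, 53.9 and 52.4 in Osi_cIGF1R. Every Osi_cIGF1R library lay below every other library, and DMSO_EV and Osi_Lin_EV overlapped. LAMB3 fell in Osi_cIGF1R against DMSO_EV (log2 fold change -0.38, SE 0.10, adjusted p = 0.00414). In Osi_Lin_EV it did not pass (log2 fold change -0.19, SE 0.10, adjusted p = 0.132), nor between the treated groups (adjusted p = 0.113), although it passed in Osi_Lin_EV under median-of-ratios rescaling (adjusted p = 0.0338; range 0.0338 to 0.444) and between the treated groups without Osi_Lin_EV replicate 3 (0.0486) and under quantile normalization (0.0408; range 0.0408 to 0.384).

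LAMC1 (chromosome 1 from 183023420 to 183145592), the most widespread gamma chain, was at 15.4, 19.1 and 21.1 FPKM in DMSO_EV, 19.6, 18.5 and 16.9 in Osi_Lin_EV and 24.7, 23.1 and 17.2 in Osi_cIGF1R, and did not pass in any comparison (adjusted p = 0.973, 0.192 and 0.19). Without Osi_cIGF1R replicate 3, the lowest of its group, LAMC1 was higher in Osi_cIGF1R than in DMSO_EV (log2 fold change 0.36, adjusted p = 0.0215; range 0.0215 to 0.582) and than in Osi_Lin_EV (0.37, adjusted p = 0.0232; range 0.0232 to 0.522).

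Summed over subunits, the integrin alpha transcripts came to 98.1 ± 9.44 FPKM in DMSO_EV, 60.1 ± 1.92 FPKM in Osi_Lin_EV and 98.2 ± 6.41 FPKM in Osi_cIGF1R (SD, n = 3), and the beta transcripts to 139 ± 20.03 FPKM in DMSO_EV, 86.4 ± 6.1 FPKM in Osi_Lin_EV and 134 ± 2.6 FPKM in Osi_cIGF1R. The Osi_Lin_EV libraries were the lowest of both classes, and DMSO_EV and Osi_cIGF1R overlapped. Laminin alpha chains summed to 113 ± 7.56 FPKM in DMSO_EV, 138 ± 1.13 FPKM in Osi_Lin_EV and 90.1 ± 15 FPKM in Osi_cIGF1R, and laminin beta chains to 125 ± 7.53 FPKM in DMSO_EV, 157 ± 10.4 FPKM in Osi_Lin_EV and 149.7 ± 5.91 FPKM in Osi_cIGF1R. The mean totals of both integrin classes were thus lowest in Osi_Lin_EV, while those of laminin alpha and beta chains were highest there.

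Shares within a class do not depend on the scaling of a library. ITGB1 made up 35.2 ± 4.58% in DMSO_EV, 44.7 ± 1.79% in Osi_Lin_EV and 50.9 ± 1.19% in Osi_cIGF1R of beta subunit FPKM (SD, n = 3). ITGB5 took 33.3 ± 2.19% in DMSO_EV, 18.8 ± 0.753% in Osi_Lin_EV and 17.9 ± 0.277% in Osi_cIGF1R. ITGB5 had the larger share of the 2 in DMSO_EV replicates 1 and 2 (34.2% against 31.01% and 34.83% against 34.45%). In DMSO_EV replicate 3 ITGB1 had the larger share (40.08% against 30.76%), and in each treated library it led by more. These shares rest on the level of ITGB1, which is uncertain because of ITGB1P1, as given above. ITGA3 was the leading alpha subunit in all 9 libraries, with 49.2% to 57.5% of alpha FPKM. The share of ITGA5 was 21.2 ± 0.517% in DMSO_EV, 22.9 ± 0.326% in Osi_Lin_EV and 36.3 ± 1.78% in Osi_cIGF1R, so every Osi_cIGF1R library had a larger share of the fibronectin receptor subunit than every other library. Of laminin beta chains, LAMB2 held 20.4 ± 1.91% in DMSO_EV, 38.2 ± 1.23% in Osi_Lin_EV and 42.2 ± 0.881% in Osi_cIGF1R and LAMB3 55.8 ± 1.07% in DMSO_EV, 39.1 ± 1.64% in Osi_Lin_EV and 35.6 ± 0.877% in Osi_cIGF1R, a change of leading chain from LAMB3 in the vehicle libraries to LAMB2 in Osi_cIGF1R. LAMA5 stayed between 87.8% and 97.1% of alpha chain FPKM in every library.

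**Figure D3:**
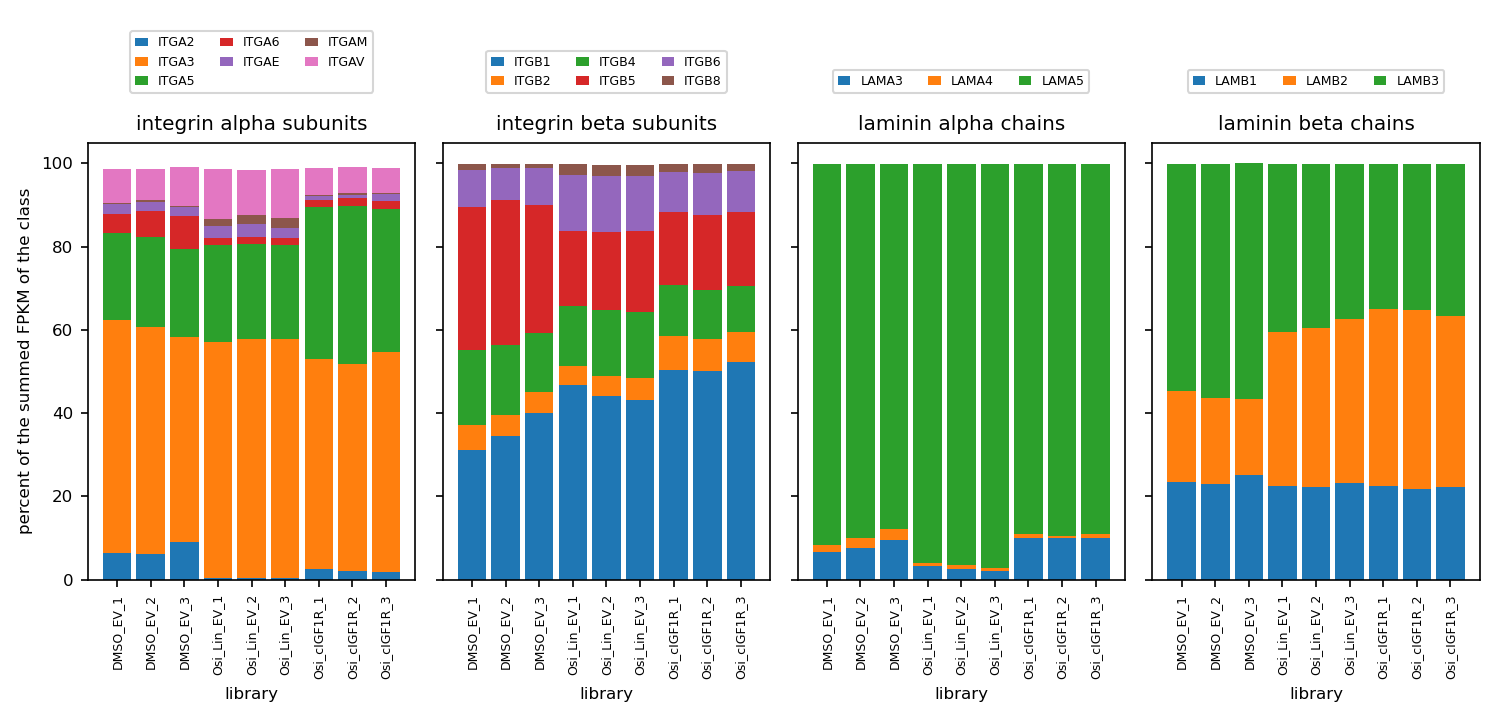
Percent of the summed FPKM of each class taken by each tested gene in the 9 libraries, for integrin alpha and beta subunits and laminin alpha and beta chains. LAMB2 goes from a mean of 20.4% in DMSO_EV to 38.2% in Osi_Lin_EV and 42.2% in Osi_cIGF1R, and ITGB5 from 33.3% to 18.8% and 17.9%.

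Ratios of FPKM within receptors and laminins shifted with treatment. For laminin-521, LAMA5 was 3.88 to 4.14 times LAMB2 in DMSO_EV, 2.15 to 2.30 times in Osi_Lin_EV and 1.10 to 1.37 times in Osi_cIGF1R, with no overlap. In the beta4 receptor, ITGA6 was 0.196 to 0.389 of ITGB4 in DMSO_EV, 0.0749 to 0.0817 in Osi_Lin_EV and 0.108 to 0.128 in Osi_cIGF1R. Both genes fell in both treated groups, ITGA6 by the larger ratio in every library. In the alphaVbeta5 pair the ratio went the other way, with ITGAV at 0.154 to 0.207 of ITGB5 in DMSO_EV, 0.409 to 0.447 in Osi_Lin_EV and 0.236 to 0.281 in Osi_cIGF1R. Protein levels and the pairs formed at the surface were not measured.

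Fibronectin, the ligand of alpha5beta1, rose with its receptor genes in Osi_cIGF1R and not in Osi_Lin_EV. FN1 stood at 570, 879 and 998 FPKM in DMSO_EV, 933, 827 and 703 in Osi_Lin_EV and 3070, 2980 and 1870 in Osi_cIGF1R. Every Osi_cIGF1R library was above every other library, with replicate 3 the lowest of the 3, and DMSO_EV and Osi_Lin_EV overlapped. FN1 rose in Osi_cIGF1R against DMSO_EV (log2 fold change 1.70, SE 0.23, adjusted p = 3.62e-05) and against Osi_Lin_EV (log2 fold change 1.66, SE 0.23, adjusted p = 7.27e-05), alongside the rises of ITGA5 and ITGB1 given above. In Osi_Lin_EV FN1 did not pass (log2 fold change 0.04, SE 0.23, adjusted p = 0.898), while ITGA5 fell. Across the 16 listed RGD-type and other matrix ligands, 9 could be tested. Of these, 3 rose and 4 fell in Osi_Lin_EV and 4 rose and 5 fell in Osi_cIGF1R against DMSO_EV, with medians of -0.04 and -0.76, so that 77.8% and 100% were called against 52.6% and 69% of all genes. Osteopontin (SPP1), a ligand of alphaV integrins, reached 83.8, 83.6 and 102 FPKM in Osi_cIGF1R from 15.3, 20 and 24.2 in DMSO_EV. ITGAV was lower in Osi_cIGF1R, with a call that was lost under some alternatives, as given above. In Osi_Lin_EV SPP1 fell against DMSO_EV (log2 fold change -0.52, SE 0.14, adjusted p = 0.00844). Nephronectin (NPNT), an integrin ligand of basement membranes, was at 10.4, 10.4 and 10.3 FPKM in Osi_Lin_EV against 0.695, 0.674 and 0.622 in DMSO_EV (log2 fold change 2.77, SE 0.09, adjusted p = 4.25e-11). NPNT rose less in Osi_cIGF1R, to a mean of 3.62 FPKM (log2 fold change 1.47, SE 0.09, adjusted p = 7.35e-09). CCN2, a matricellular protein, rose in Osi_Lin_EV (log2 fold change 1.05, SE 0.09, adjusted p = 9.26e-07) and fell in Osi_cIGF1R (log2 fold change -2.93, SE 0.09, adjusted p = 1.18e-11). Thrombospondin 1 (THBS1) fell in both treated groups, to means of 3.49 and 2.46 FPKM from 11.2. Tenascin C (TNC) also fell in both, to means of 2.48 in Osi_Lin_EV and 4.82 in Osi_cIGF1R from 14.1.

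**Figure D4:**
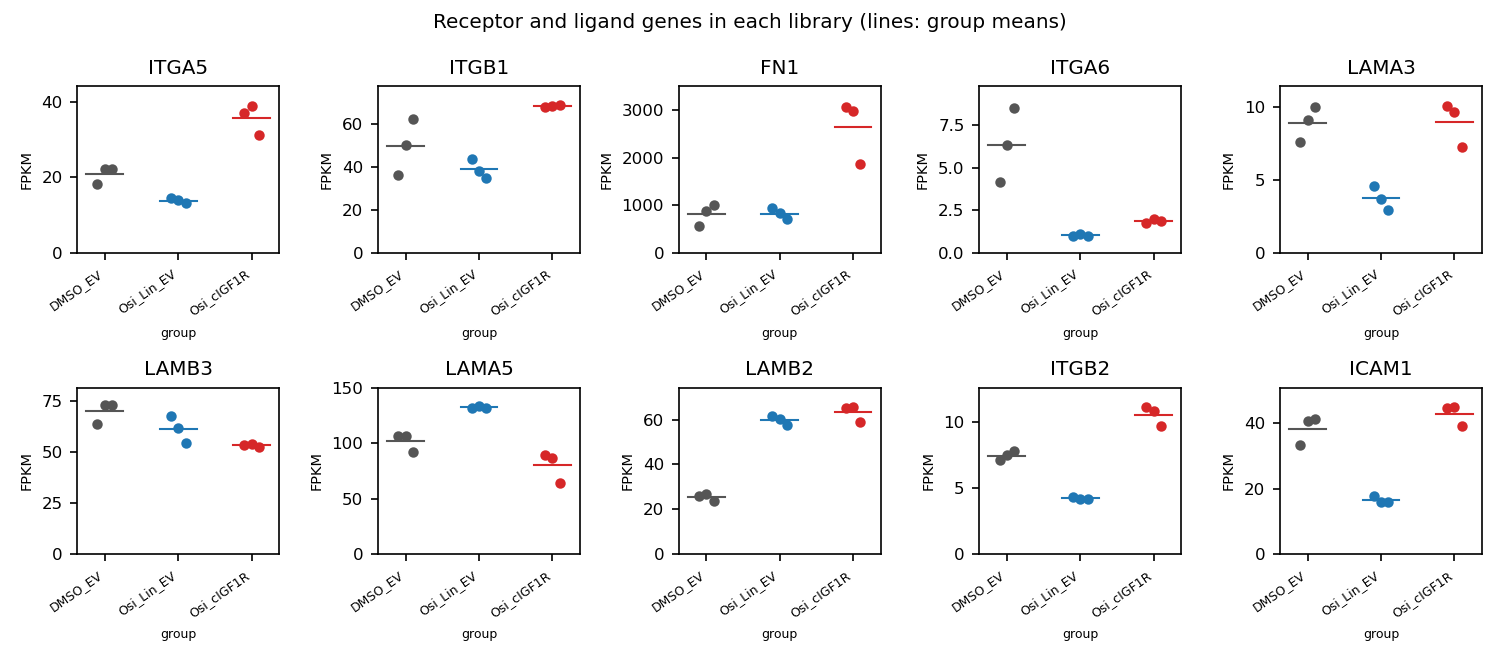
FPKM by library of receptor and ligand genes, each on its own axis from 0, with lines at the group means. ITGA5, ITGB1 and FN1 are highest in the 3 Osi_cIGF1R libraries, LAMA3 lowest and LAMA5 highest in the 3 Osi_Lin_EV libraries, and ITGB2 and ICAM1 lowest in Osi_Lin_EV.

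ICAM1, the surface ligand of beta2 integrins, was at 33.4, 40.7 and 41.2 FPKM in DMSO_EV, 17.8, 15.8 and 15.8 in Osi_Lin_EV and 44.6, 44.9 and 39.1 in Osi_cIGF1R. The Osi_Lin_EV libraries were far below the others, as for ITGB2. ICAM1 fell in Osi_Lin_EV (log2 fold change -1.17, SE 0.10, adjusted p = 8.54e-07) and was higher in Osi_cIGF1R than in Osi_Lin_EV (log2 fold change 1.33, SE 0.10, adjusted p = 2.38e-07), and Osi_cIGF1R did not differ from DMSO_EV by the test (adjusted p = 0.197). CDH1, the E-cadherin to which alphaE integrin binds, rose in Osi_cIGF1R to 128, 131 and 103 FPKM from 32.4, 42.5 and 50.8 (log2 fold change 1.52, SE 0.15, adjusted p = 8.74e-07), where ITGAE fell. F11R, a junction protein bound by the beta2 integrin alphaLbeta2, rose in both treated groups (log2 fold change 0.40 and 0.74, adjusted p = 0.00801 and 4.79e-05). Of the 5 counter-receptors of leukocyte and alpha4 integrins that could be tested, 1 rose and 1 fell in Osi_Lin_EV, and 2 rose and 2 fell in Osi_cIGF1R against DMSO_EV, which is 40% and 80% called against 52.6% and 69% of all genes. The 1 rise in Osi_Lin_EV became 2 without DMSO_EV replicate 3.

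The list for latent TGF-beta, forms of which alphaVbeta6 and alphaVbeta8 release, holds TGF-beta genes, LTBP genes and LRRC32. Against DMSO_EV, 5 of its 7 counted genes rose and 1, LTBP2, fell in Osi_Lin_EV. In Osi_cIGF1R 5 of 7 rose and the other 2 did not pass. With the filter at 5 FPKM, which tests fewer genes, the rises were 3 in each comparison. Under that filter 1 fall was called in Osi_cIGF1R. The same held under quantile normalization and without DMSO_EV replicate 1 or Osi_cIGF1R replicate 1 or 2. The shares called were 85.7% and 71.4%, the latter near the 69% of all genes, and the medians 0.40 and 0.46. TGFB3, which met the filter through Osi_cIGF1R alone, with at most 1.20 FPKM there and 0.368 elsewhere, is not counted. TGFB1 stood at 35.5, 47.1 and 49.3 FPKM in the order DMSO_EV, Osi_Lin_EV, Osi_cIGF1R, and rose in both treated groups (adjusted p = 0.00275 and 0.000618). LTBP3, a binding protein of the latent form, rose likewise, to 114, 126 and 119 and 164, 163 and 164 FPKM from 91.4, 96.2 and 81.1. The receptor genes gave a mixed picture beside this, with ITGB8 higher, ITGB6 not called and ITGAV lower in Osi_cIGF1R. The call of ITGAV was lost under some alternatives, as given above.

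Other basement membrane genes rose in 7 of 11 tested cases in Osi_Lin_EV and 7 of 11 in Osi_cIGF1R, with 2 and 1 falls and medians of 0.54 and 0.66. Called were thus 81.8% against 52.6% of all genes in Osi_Lin_EV, and 72.7% against 69%, near the background, in Osi_cIGF1R. The 1 fall in Osi_cIGF1R became 2 without DMSO_EV replicate 1. Agrin (AGRN), a laminin-binding proteoglycan, was at 103, 115 and 109 FPKM in DMSO_EV, 170, 162 and 155 in Osi_Lin_EV and 307, 299 and 268 in Osi_cIGF1R, and rose in Osi_Lin_EV (log2 fold change 0.57, SE 0.10, adjusted p = 0.00028) and in Osi_cIGF1R (log2 fold change 1.41, SE 0.10, adjusted p = 2.73e-08). Netrin 4 (NTN4), which binds laminin gamma chains and can take a laminin network apart, went to 23.8, 23.9 and 24.7 FPKM in Osi_cIGF1R and 9.6, 9.04 and 9.27 in Osi_Lin_EV from 4.36, 5.38 and 5.98 (log2 fold change 2.02 and 0.73). The collagen IV gene COL4A3 rose in Osi_Lin_EV (log2 fold change 2.33, SE 0.12, adjusted p = 3.71e-09) and less in Osi_cIGF1R (log2 fold change 0.71, SE 0.12, adjusted p = 0.000136). COL4A1 fell in Osi_Lin_EV to 3.1, 3.25 and 1.47 FPKM from 4.78, 5.51 and 6.29. COL7A1, the collagen of anchoring fibrils that tie laminin-332 to the stroma, fell in Osi_cIGF1R to 33.3, 33.5 and 33.5 FPKM from 84.7, 76.5 and 69.8 (log2 fold change -1.17, SE 0.09, adjusted p = 8.32e-08). Of 6 testable genes of fibrillar and other collagens, 3 rose and 1 fell in Osi_Lin_EV, and 5 rose and 1 fell in Osi_cIGF1R. That is 66.7% and 100% called against 52.6% and 69% of all genes. COL12A1 had the largest rise in both, at means of 34.6 and 33.5 FPKM against 14.6, while ITGA2, the only collagen-binding subunit above 1 FPKM, fell.

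Laminin receptors other than integrins changed in 6 of 7 tested cases in each comparison with DMSO_EV, 3 higher and 3 lower, or 85.7% against 52.6% and 69% of all genes. BCAM, a receptor of laminin-511 and laminin-521, rose to 124, 126 and 123 FPKM in Osi_Lin_EV and 135, 135 and 144 in Osi_cIGF1R from 53, 55.7 and 47.2 (log2 fold change 1.25, SE 0.09, adjusted p = 1.43e-07 in Osi_Lin_EV). The syndecan SDC4 rose in Osi_cIGF1R (log2 fold change 1.60, SE 0.10, adjusted p = 5.68e-09) and less in Osi_Lin_EV (log2 fold change 0.64, SE 0.10, adjusted p = 9.23e-05). CD44, a hyaluronan receptor on this list, fell to 27.9, 27.8 and 27.6 and 17.6, 18.2 and 16.5 FPKM from 99, 101 and 117 (log2 fold change -2.53, SE 0.09, adjusted p = 3.3e-11 in Osi_cIGF1R). RPSA, a ribosomal protein also described as a laminin receptor, fell to 147, 142 and 186 FPKM in Osi_cIGF1R from 472, 570 and 559. It fell less in Osi_Lin_EV, to 399, 396 and 342 FPKM (log2 fold change -0.49, SE 0.13, adjusted p = 0.00589).

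Around the hemidesmosome, the tetraspanin CD82, which associates with integrins, rose to 18.9, 14.6 and 13.4 FPKM in Osi_Lin_EV and 38.6, 39.5 and 42.6 in Osi_cIGF1R from 3.74, 5.66 and 4.59 (log2 fold change 1.56, SE 0.14, adjusted p = 7.27e-07 and log2 fold change 2.88, SE 0.14, adjusted p = 5.95e-10). Plectin (PLEC), the linker of ITGB4 to keratin, fell in Osi_cIGF1R (log2 fold change -0.68, SE 0.10, adjusted p = 2.98e-05). Of 7 hemidesmosome and tetraspanin genes, 1 rose and 6 did not pass in Osi_Lin_EV, and 5 rose and 1 fell in Osi_cIGF1R against DMSO_EV, or 14.3% and 85.7% called against 52.6% and 69% of all genes. COL17A1, a hemidesmosomal collagen, met the filter through Osi_cIGF1R alone, with at most 5.41 FPKM there and 0.281 elsewhere, and is not counted. The 1 rise in Osi_Lin_EV was that of CD82, and the count was 4 without Osi_cIGF1R replicate 3, 4 with equal totals without mitochondrial genes and 5 under quantile normalization. For the 26 tested activators and adaptors inside the cell, 9 rose and 6 fell in Osi_Lin_EV, and 8 rose and 7 fell in Osi_cIGF1R, with medians of 0.06 and 0.08 and calls in 57.7% of them in each, which is below the 69% of all genes called in Osi_cIGF1R and near the 52.6% in Osi_Lin_EV. The 6 falls in Osi_Lin_EV became 3 without DMSO_EV replicate 3 and 3 without Osi_Lin_EV replicate 3. TNS4, a tensin that binds beta subunit tails, fell to 5.86, 5.35 and 6.53 FPKM in Osi_Lin_EV and 7.91, 7.73 and 5.68 in Osi_cIGF1R from 20.5, 20 and 20.9. TNS1 rose in Osi_cIGF1R to 11.2, 10.3 and 7.3 FPKM from 1.3, 1.52 and 1.5 (adjusted p = 8.95e-09). TNS1 also rose in Osi_Lin_EV, to a mean of 2.35 FPKM (log2 fold change 0.45, SE 0.13, adjusted p = 0.0101). FERMT1, the epithelial kindlin that activates beta1 integrins, fell in Osi_Lin_EV (log2 fold change -1.10, SE 0.16, adjusted p = 6.25e-05) and less in Osi_cIGF1R (log2 fold change -0.50, SE 0.16, adjusted p = 0.0114). Of 3 tested genes that were listed as proteases of laminins, 2 rose in Osi_Lin_EV. In Osi_cIGF1R 1 rose and 1 fell, and the rises were 2 without Osi_cIGF1R replicate 3. Cutting of laminin was not measured. The share called was 66.7% in each, against 52.6% and 69% of all genes, so it was near the background in Osi_cIGF1R. The urokinase gene PLAU rose in both, to 53.7, 51.8 and 50.9 and 56, 56.7 and 58.6 FPKM from 29.8, 30.8 and 32.4.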

How the data were processed

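RNA-seq values of 9 libraries of H1975 cells were analysed, and the 12 libraries of circular RNA were not used here. The authors deposited 1 table of 34021 gene symbols with a column per library. Its unit is not named, and fractional values with unequal totals (338034 to 474156) are those of FPKM, as deposited. Bowtie2 2.1.0, STAR, edgeR and hg38 appear in the submitters' processing notes without roles, and counter, annotation, strand and filters are not stated there. No whole-read steps were found among low values, so depth is unknown and no counting interval can be given. An extraction text shared by all samples names RNase R, which digests linear RNA, so its use on these libraries is not settled.

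Values were tested as log2(FPKM + 1) in limma 3.58.1 (R 4.3.3), with a variance trend and robust empirical Bayes, in 1 fit over the 3 groups and 13775 genes with at least 1 FPKM in at least 3 libraries. P-values were adjusted by Benjamini-Hochberg over these genes (threshold 0.05). Changes of low genes come out too small on this scale. The fit was tested on simulated data. Symbols of all 35 genes described matched RefSeq. A further item is not reported here. Per-library values are given for members with a group mean of at least 5 FPKM, and of each gene list up to 3 called genes per comparison were named by size of change, where the higher mean was at least 5 FPKM. Overlapping genes and single markers were named after their values were seen. Members, lists and tests were chosen with earlier results of these data known. Protein sequences were not used here. Alternatives were another variance prior, 3 rescalings, 2 filters, 2 pseudocounts, fits of each pair of groups alone, a replicate block, a fold threshold and the omission of each library. Counts of gene lists under them, and the omission from all counts of genes that met the filter through 1 group alone, were added after seeing the data.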

Additional observations from a re-analysis of the deposited data

How the results depend on the processing

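Of 57 tests of the 19 genes, 37 gave a call. Of these, 30 kept call and direction under each of the 19 alternatives in which the gene was tested, 7 lost the call under at least 1, and none changed direction. Another 10 gained a call under some alternative. With an absolute log2 fold change of at least 1 also required, the genes called higher and lower were 503 and 763 in Osi_Lin_EV against DMSO_EV, 1433 and 1571 in Osi_cIGF1R against DMSO_EV, and 907 and 603 in Osi_cIGF1R against Osi_Lin_EV, and among the 19 genes 1 and 4, 1 and 3, and 4 and 0. The filter at 5 FPKM, which tests fewer genes, gave 1 of the 19 lower in the last of these comparisons, with 3238 and 3148 of all genes lower in Osi_cIGF1R against DMSO_EV and against Osi_Lin_EV. Leaving out single libraries gave 2 to 4 higher and 9 to 10 lower, 5 to 6 and 8 to 9, and 7 to 10 and 1 to 3 of the 19, in the same order. Pseudocounts of 0.1 and 5 moved the changes of low genes by over 1.5 times, LAMA4 in Osi_Lin_EV from -0.75 to -1.15 and -0.30, and ITGA6 there from -1.81 to -0.90 at 5, with their calls held. Replicate numbers did not pair the libraries, since the deviations of same-numbered libraries correlated at -0.315 to 0.036, and not every library correlated best with its own number. A replicate block gave 3757 and 3081, 4404 and 4800, and 3405 and 4558 genes higher and lower, and 3 and 9, 5 and 9, and 8 and 2 of the 19. Depth is unknown, so the counting error of values near 0 cannot be given.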
